A study of Homo sapiens with 8 samples.

Results

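The genes described here are those that bring glucose into a cell and fix it there. They comprise 7 members of the SLC2A family of facilitative sugar transporters (SLC2A1, SLC2A3, SLC2A6, SLC2A8, SLC2A10, SLC2A12 and SLC2A13) and 3 hexokinases (HK1, HK2 and HKDC1). They were taken by symbol from the deposited expression table, where all 10 had a row among 21059 genes, and each averaged at least 1 count per 1000000 reads (CPM). SLC2A13 carries myo-inositol with protons rather than glucose and was kept because it belongs to the same family.

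RNA was sequenced from MDA-MB-157, an established breast cancer line that is ER negative, in 4 libraries for each of 2 glucose concentrations held for 48 hours, namely 5 mM, called low glucose, and 25 mM, called high glucose. Per the study's methods, both groups were without serum and were conditioned in low glucose medium, after which the high glucose flasks were switched. All libraries come from the same line, and no library with mannitol as an osmotic control is among the 8. The comparison asks how the transcripts of glucose uptake and phosphorylation differ when glucose is raised to a concentration that models hyperglycemia.

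Facilitative transporters move sugars down their gradient and differ in affinity and in where they sit: GLUT1, the product of SLC2A1, carries basal uptake at the surface of most cells, whereas several relatives are held on internal membranes. Hexokinases then phosphorylate glucose to glucose 6-phosphate, which cannot leave through the transporters and feeds glycolysis, the pentose phosphate pathway and glycogen. Many tumors, breast carcinomas among them, carry high SLC2A1 and HK2, and both genes are textbook targets of hypoxia-inducible factors.

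Promoter windows are shown first for HK2, SLC2A13 and SLC2A1, the 3 genes with the largest rises below, so that the letters recognized by factors known to act on such genes can be seen. Each is the 250 bases before an annotated start (RefSeq, GRCh38.p14), written 5′ to 3′ on the strand of the gene. Capitals mark CACGTG, the E-box bound by MYC and carbohydrate-response factors, or ACGTG, the core of the hypoxia-response element, which reads CACGT where it lies on the other strand.
HK2 upstream start, chr2:74833877-74834126, plus strand: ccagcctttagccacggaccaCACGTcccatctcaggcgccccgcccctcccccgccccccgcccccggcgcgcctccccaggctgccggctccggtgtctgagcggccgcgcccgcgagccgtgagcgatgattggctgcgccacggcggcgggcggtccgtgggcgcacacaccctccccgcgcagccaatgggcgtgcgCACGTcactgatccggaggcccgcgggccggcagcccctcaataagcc
HK2 downstream start, chr2:74834920-74835169, plus strand: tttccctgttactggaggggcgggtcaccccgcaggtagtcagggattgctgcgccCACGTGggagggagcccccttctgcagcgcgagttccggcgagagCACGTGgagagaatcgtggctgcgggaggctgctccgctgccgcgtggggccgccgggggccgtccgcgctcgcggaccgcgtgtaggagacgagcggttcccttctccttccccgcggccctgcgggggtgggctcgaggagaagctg
SLC2A13, chr12:40106082-40106331, minus strand: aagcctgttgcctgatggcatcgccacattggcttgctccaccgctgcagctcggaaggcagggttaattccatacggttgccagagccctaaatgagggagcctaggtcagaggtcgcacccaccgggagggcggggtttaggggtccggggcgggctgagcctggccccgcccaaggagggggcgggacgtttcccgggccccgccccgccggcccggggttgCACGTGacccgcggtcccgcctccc
SLC2A1, chr1:42958869-42959118, minus strand: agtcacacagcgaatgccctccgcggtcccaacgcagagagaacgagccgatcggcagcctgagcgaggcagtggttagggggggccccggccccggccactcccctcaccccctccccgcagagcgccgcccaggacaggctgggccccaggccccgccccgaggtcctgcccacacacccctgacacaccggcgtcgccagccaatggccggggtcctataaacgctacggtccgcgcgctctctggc

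Both HK2 windows held capitals. The upstream window had 2 cores, at 229 to 225 and at 48 to 44 bases before its start. The downstream window had 2 full E-boxes, at 194 to 189 and at 149 to 144 bases before its start. SLC2A13 had 1 E-box at 25 to 20 bases before its start, and the SLC2A1 window had neither motif. Of the 10 genes, 9 had a window in the RefSeq table, and some had several, so that 16 windows were searched. CACGTG was found in 2 of the 16 windows (of HK2 and SLC2A13) and ACGTG in 4 (also of SLC2A10), both strands being read, and each CACGTG also counts as ACGTG. The GC box of SP1, GGGCGG, was found in 9 of the 16 windows. The shares among all 35116 windows of this length were 6.34% for CACGTG, 18.5% for ACGTG and 42.6% for GGGCGG. The paired form CACGTGNNNNNCACGTG, known from genes that respond to carbohydrate, was found in 0 of the 16 windows and in 0.00285% of all windows. A match describes letters only and shows no binding.

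Each library rested on an estimated 9721650 to 12482500 reads, and 3 reads, taken as the floor, corresponded to 0.212 to 0.267 CPM, which covers counting error only. Values are CPM scaled by trimmed mean of M values (TMM), and changes are high minus low glucose on the log2(CPM + 1) scale. Cell type markers, named here outside the rule for named genes, were read over the 8 libraries. Of the hormone receptors, ESR1 was between 0 and 0.170 CPM and PGR between 4.33 and 5.95 CPM. Of the leukocyte markers measured, PTPRC was between 0 and 0.178 CPM and CD68 between 9.38 and 14.3 CPM. The mesenchymal markers VIM, CDH2 and FN1 summed to 5365 to 7823 CPM and 5 epithelial markers to 240.3 to 375.7 CPM. Of the latter, KRT18 was between 156 and 238 CPM, KRT8 between 76.4 and 138 CPM and EPCAM between 3.93 and 7.62 CPM. CDH1 was between 0.330 and 1.41 CPM and KRT19 at or below 0.0825 CPM. The 3 endothelial markers summed to 1.75 to 3.13 CPM, and the adipocyte marker PLIN1 was between 0.146 and 0.825 CPM. High glucose replicate 1 stood apart along transcript length. Each library was compared, gene by gene, with the mean of the other libraries of its group. Across 11223 genes this deviation had a Spearman rho with length of -0.65 in high glucose replicate 1. The rho was 0.248 to 0.466 in the other high glucose libraries, whose reference includes replicate 1, and -0.133 to 0.0562 at low glucose. High glucose replicate 1 was the highest of its group in 5 of the 10 genes (SLC2A1, SLC2A3, SLC2A6, SLC2A8 and HKDC1) and the lowest in 3 (SLC2A13, HK1 and HK2). Along GC content it was high glucose replicate 4 that stood apart, with a rho of -0.487. That rho was -0.0105 to 0.337 in the other high glucose libraries, whose reference includes replicate 4, and -0.16 to 0.167 at low glucose. Values without high glucose replicate 1 are given with each of the 10 genes, but not with the genes of the lists below. Values without high glucose replicate 4 are given with SLC2A6 and SLC2A8, the genes with the highest GC content of the 10. The part of length and GC in the results was not tested beyond these and the values with either trend removed.

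At high glucose 6 of the 10 genes stood higher and 3 stood lower, with all hexokinases among the former. HK2, SLC2A13, SLC2A1, SLC2A3, HKDC1 and HK1 were higher at 25 mM at an adjusted p under 0.05 (limma, Benjamini-Hochberg over 21059 genes). SLC2A10, SLC2A12 and SLC2A6 were lower, and SLC2A8 did not pass. Over all genes, 22.0% were called higher and 24.8% lower, and among the 14372 genes of at least 1 CPM, as all 10 genes are, 29.5% and 32.6%. The median log2 change was 0.45 over the 10 genes and -0.04 over genes of at least 1 CPM. The groups did not overlap in 9 of the 10 genes, 6 higher and 3 lower, where 28.4% of genes of at least 1 CPM lay wholly higher and 31.6% wholly lower. Without high glucose replicate 1 the counts were again 6 and 3. In a bulk library, less of a transcript per cell cannot be told apart from fewer cells that make it, and since separate cultures are not stated for the replicates, p-values measure the spread between these libraries only.

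**Figure D1:**
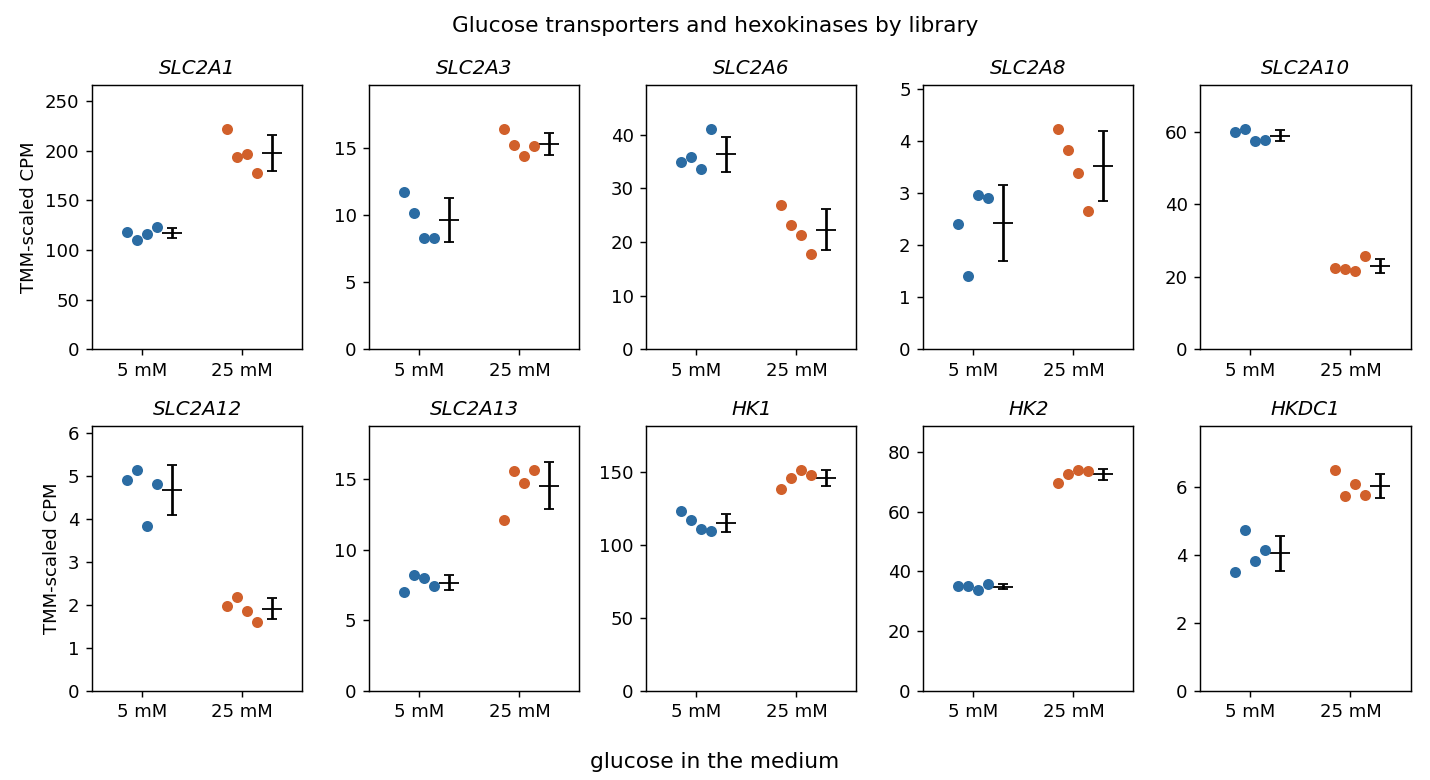
Each panel plots 1 gene, with TMM-scaled CPM on a linear axis from 0 against glucose in the medium. Points are libraries in order of replicate number, and bars are mean ± SD of 4 libraries. The groups are apart in every panel except SLC2A8, where the highest low glucose library (2.97 CPM) lies above the lowest high glucose library (2.67 CPM).

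SLC2A1 (ENSG00000117394.21, chromosome 1, 42925353 to 42958868, minus strand, GRCh38.p14) encodes GLUT1, the main surface transporter of most dividing cells. At low glucose its 4 libraries held 118, 110.4, 116 and 123 CPM, and at high glucose 222, 194, 197 and 178 CPM. Every high glucose library lay above every low glucose library, and replicate 1 was the highest of them. The means were 117 ± 5.13 and 197 ± 18.1 CPM (SD, n = 4), a 1.69-fold difference and a log2 change of 0.75 (SE 0.07, adjusted p = 0.000108, limma). Without high glucose replicate 1 the log2 change was 0.69. Another annotated gene overlaps an exon of SLC2A1 on the opposite strand, and whether the counting used strand is not given in the sources used here.

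SLC2A3 (ENSG00000059804.16, chromosome 12, 7919230 to 7936187, minus strand) encodes GLUT3, a transporter of high affinity best known from neurons. It held 11.8, 10.2, 8.32 and 8.30 CPM at low glucose and 16.4, 15.2, 14.4 and 15.2 CPM at high glucose. The groups were apart, although low glucose replicate 1 came within 2.68 CPM of the nearest high glucose library. The means were 9.64 ± 1.66 and 15.3 ± 0.832 CPM (SD, n = 4), 1.59-fold, with a log2 change of 0.63 (SE 0.11, adjusted p = 0.00289, limma), and of 0.60 without high glucose replicate 1. Of the 31-base words of the SLC2A3 transcript, 43.0% also occur in another gene, mainly in SLC2A14, a close paralog that was not analysed here, so the SLC2A3 value is uncertain to the extent that reads were divided between them.

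SLC2A13 (ENSG00000151229.13, chromosome 12, 39755025 to 40106081, minus strand), which encodes the proton myo-inositol cotransporter HMIT, showed the largest rise among the transporters. Its libraries held 7.00, 8.20, 7.98 and 7.43 CPM at low and 12.1, 15.6, 14.8 and 15.6 CPM at high glucose. The lowest library of the high glucose group, replicate 1, still lay above all low glucose libraries. The means were 7.65 ± 0.542 and 14.5 ± 1.65 CPM (SD, n = 4), 1.90-fold, with a log2 change of 0.84 (SE 0.09, adjusted p = 0.000268, limma). At 7221 bases its transcript is the longest of the 10, and without high glucose replicate 1 the log2 change was 0.92. C12orf40 overlaps it on the opposite strand.

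SLC2A8 (ENSG00000136856.17, chromosome 9, 127397169 to 127407898, plus strand) encodes GLUT8, which a sorting signal keeps on internal membranes. It held 2.42, 1.41, 2.97 and 2.91 CPM at low and 4.24, 3.83, 3.38 and 2.67 CPM at high glucose, and the groups overlapped. The log2 change of 0.42 (SE 0.19) had a 95% interval from -0.04 to 0.87 and did not pass (adjusted p = 0.120, limma). The lowest library rested on an estimated 17 reads. The gene passed in 4 of 17 alternatives, with adjusted p (limma) of 0.0483 when only genes of at least 1 CPM were tested, 0.0437 after quantile normalization, 0.0412 with the length trend removed and 0.0166 with the GC trend removed. The log2 change was 0.26 without low glucose replicate 2, its lowest library, 0.34 without high glucose replicate 1 and 0.51 without high glucose replicate 4.

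SLC2A10 (ENSG00000197496.6, chromosome 20, 46708320 to 46736347, plus strand) fell most of the 10 genes. It encodes GLUT10, known for its loss in arterial tortuosity syndrome and for transport of dehydroascorbic acid on internal membranes. Low glucose libraries held 59.9, 60.8, 57.6 and 57.7 CPM and high glucose libraries 22.4, 22.1, 21.6 and 25.7 CPM. No high glucose library came near the low glucose group. The means were 59.0 ± 1.61 and 23.0 ± 1.85 CPM (SD, n = 4), 2.57-fold lower at high glucose, with a log2 change of -1.33 (SE 0.05, adjusted p = 3.85e-06, limma), and 2.03% of genes of at least 1 CPM changed by more in either direction. Without high glucose replicate 1 the log2 change was -1.32.

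SLC2A12 (ENSG00000146411.5, chromosome 6, 133987581 to 134052624, minus strand) encodes GLUT12, a transporter that insulin can bring to the surface in muscle and that was first described in the MCF-7 breast cancer line. It held 4.89, 5.12, 3.82 and 4.81 CPM at low and 1.98, 2.17, 1.86 and 1.59 CPM at high glucose. All high glucose libraries lay below all low glucose libraries, at an estimated 18 reads or more. The means of 4.66 ± 0.576 and 1.90 ± 0.242 CPM (SD, n = 4) differed 2.45-fold, with a log2 change of -0.96 (SE 0.10, adjusted p = 0.000244, limma). The pseudocount of 1 understates the change of so low a gene, and with a pseudocount of 0.1 the log2 change was -1.25. Without high glucose replicate 1 it was -0.98. TBPL1 overlaps an exon on the opposite strand.

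SLC2A6 (ENSG00000160326.14, chromosome 9, 133471094 to 133479099, minus strand) encodes GLUT6, a hexose transporter of lysosomal membranes. It held 34.9, 35.9, 33.6 and 41.1 CPM at low and 27.0, 23.3, 21.4 and 17.8 CPM at high glucose. The groups were apart, and both spread over several CPM. The means were 36.4 ± 3.29 and 22.3 ± 3.83 CPM (SD, n = 4), 1.63-fold lower at high glucose, with a log2 change of -0.69 (SE 0.13, adjusted p = 0.00333, limma). The log2 change was -0.78 without high glucose replicate 1, the highest of its group, and -0.59 without replicate 4, the lowest. Its transcript has a GC content of 63.4%, and with the GC trend removed the log2 change was -0.53 (adjusted p = 0.000228, limma).

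HK2 (ENSG00000159399.9, chromosome 2, 74834127 to 74893359, plus strand) is the hexokinase of muscle, fat and many tumors and binds the outer mitochondrial membrane. Low glucose libraries held 34.9, 35.1, 33.6 and 35.7 CPM and high glucose libraries 69.7, 72.5, 73.8 and 73.7 CPM. The replicates lay close together in both groups, and the gap between the groups was far wider than either. The means were 34.8 ± 0.867 and 72.4 ± 1.93 CPM (SD, n = 4), 2.08-fold, with a log2 change of 1.03 (SE 0.03, adjusted p = 9.90e-07, limma). By size of its rise HK2 ranked 433 among 14372 genes of at least 1 CPM. The log2 change was 1.05 without high glucose replicate 1, and 16.7% of the 31-base words of its transcript also occur in the pseudogene HK2P1.

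HK1 (ENSG00000156515.23, chromosome 10, 69270000 to 69401882, plus strand), the hexokinase found in nearly all tissues, held 123, 117, 111 and 109 CPM at low and 138, 146, 151 and 148 CPM at high glucose. All high glucose libraries lay above all low glucose libraries. The means were 115 ± 6.25 and 146 ± 5.58 CPM (SD, n = 4), 1.27-fold, with a log2 change of 0.34 (SE 0.05, adjusted p = 0.000724, limma). Without high glucose replicate 1, the lowest of its group, the log2 change was 0.37. HK1 had the smallest called change of the 10 genes, and 52.1% of genes of at least 1 CPM changed by more in either direction.

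HKDC1 (ENSG00000156510.13, chromosome 10, 69220332 to 69267552, plus strand), a later recognized member of the hexokinase family, ends 2447 bases before HK1 begins. It held 3.50, 4.72, 3.82 and 4.15 CPM at low and 6.49, 5.74, 6.10 and 5.78 CPM at high glucose, and the groups were apart. The means were 4.05 ± 0.521 and 6.03 ± 0.351 CPM (SD, n = 4), 1.49-fold, with a log2 change of 0.48 (SE 0.09, adjusted p = 0.00355, limma), and of 0.45 without high glucose replicate 1. Another annotated gene overlaps an exon on the opposite strand.

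**Figure D2:**
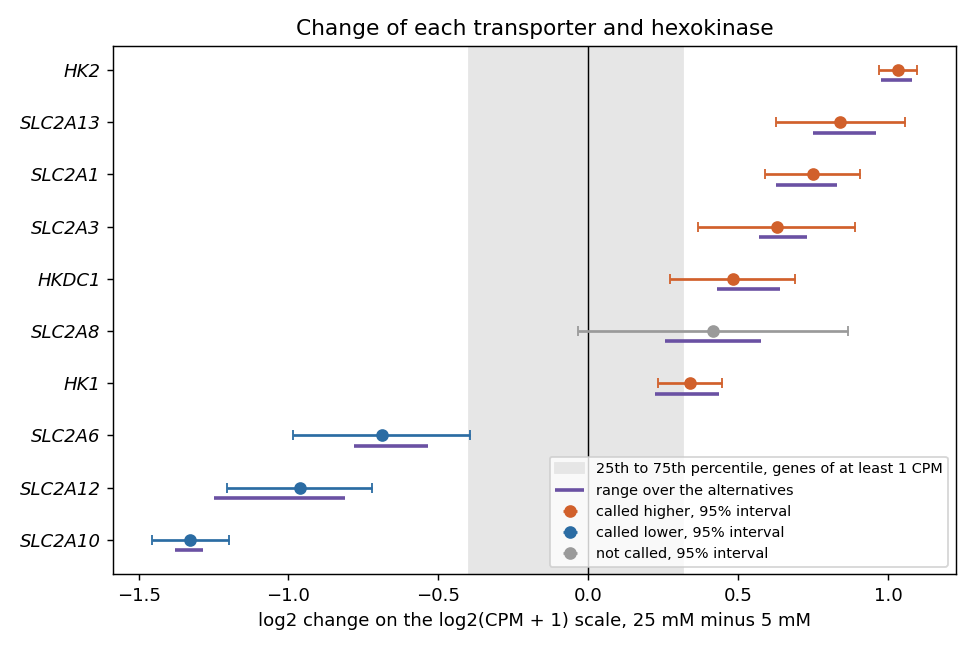
Points are log2 changes on the log2(CPM + 1) scale, 25 mM minus 5 mM, with 95% intervals (limma, 4 libraries a group), and the purple lines span the alternatives. The grey band runs from -0.40 to 0.32 and covers the 25th to the 75th percentile of genes of at least 1 CPM. HK2 lies farthest to the right and SLC2A10 farthest to the left, and the interval of SLC2A8 is the only interval that includes 0.

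Levels were compared between genes only after division by transcript length (CPM per kb). SLC2A1 and HK1 led in both groups. At low glucose SLC2A1 stood at 34.5 ± 1.52 and HK1 at 31.9 ± 1.74 CPM per kb (SD, n = 4), and their libraries overlapped. At high glucose they were at 58.4 ± 5.35 and 40.4 ± 1.55 CPM per kb and no longer overlapped. The third place changed hands. At low glucose it belonged to SLC2A6 (14.6 ± 1.32 CPM per kb) beside SLC2A10 (14.0 ± 0.381 CPM per kb), whose ranges overlapped, with HK2 behind them at 6.19 ± 0.154 CPM per kb. At high glucose HK2 held it at 12.9 ± 0.343 CPM per kb, ahead of SLC2A6 at 8.97 ± 1.54 and SLC2A10 at 5.43 ± 0.438 CPM per kb, with all 3 apart. SLC2A3 followed in both groups, at 2.52 ± 0.434 and 4.00 ± 0.217 CPM per kb. SLC2A8, HKDC1 and SLC2A13 lay between 1.06 and 2.01 CPM per kb on average and overlapped with each neighbour among them in both groups, in reversed order, and SLC2A12 was the lowest in both (0.836 and 0.341 CPM per kb).

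SLC2A1 made up more of the summed transcripts of these 7 transporters, SLC2A13 included, at high glucose. Per length, it took 50.3% ± 1.05 of the summed level of the 7 transporters at low and 72.2% ± 0.842 at high glucose (SD, n = 4). SLC2A10 went from 20.4% ± 1.04 to 6.78% ± 1.03 and SLC2A6 from 21.2% ± 1.30 to 11.05% ± 1.03. The sum itself was 68.6 ± 2.43 and 80.8 ± 6.83 CPM per kb, 1.18-fold, with the highest low glucose library at 71.8 and the lowest high glucose library at 73.5 CPM per kb. These shares restate the values above and carry no test.

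The summed level of the hexokinases was 39.2 ± 1.72 CPM per kb at low and 54.9 ± 1.82 CPM per kb at high glucose (SD, n = 4), 1.40-fold. HK1 remained the most abundant, with 81.3% ± 1.01 of the sum at low and 73.6% ± 0.396 at high glucose. The HK2 share was 15.8% ± 0.733 at low and 23.4% ± 0.204 at high glucose, whereas HKDC1 took 2.83% ± 0.391 and 3.01% ± 0.259.

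**Figure D3:**
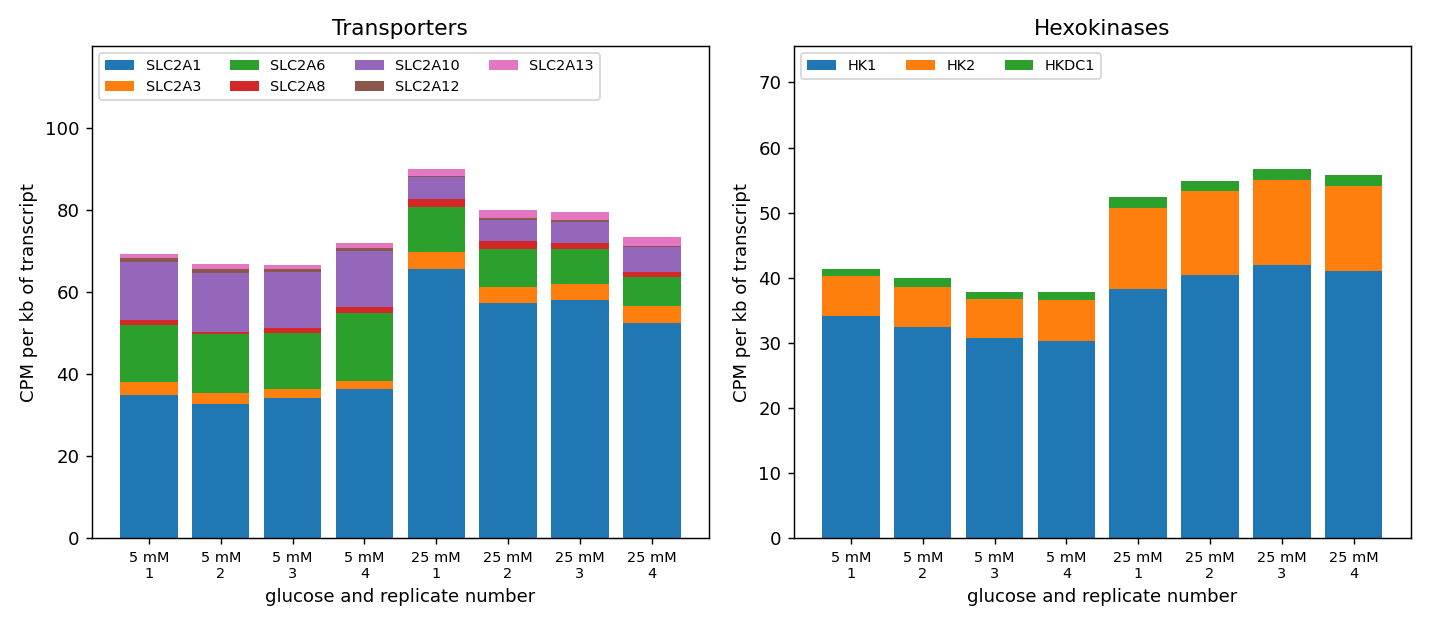
Stacked bars show CPM per kb of transcript for each of the 8 libraries, on linear axes from 0. The 7 member transporters are in the left panel and the hexokinases in the right. In every high glucose library SLC2A1 fills over 71% of the transporter bar (71.4% to 73.1%), and in every low glucose library it fills 48.9% to 51.4%.

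Pairs of relatives were then compared within each library as the difference of their log2(CPM + 1) values. HK2 against HK1 was -1.79, -1.70, -1.69 and -1.59 at low glucose and -0.974, -0.999, -1.02 and -0.994 at high glucose, so the high glucose libraries were all higher and closer together. The difference of 0.69 had an exact permutation p of 0.0286 (2-sided, 70 assignments), the smallest this design allows. After adjustment over the 2 ratios tested it was 0.0571, which misses 0.05. Unless both ratios reach the smallest p, no adjusted value can be under 0.05 here, so the miss cannot decide whether this ratio differed. SLC2A3 against SLC2A1 was -3.22, -3.32, -3.65 and -3.73 at low glucose and -3.67, -3.58, -3.68 and -3.47 at high glucose. These overlapped, with a difference of -0.12 (exact permutation p = 0.371, adjusted p = 0.371), and the spread was wider at low glucose.

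**Figure D4:**
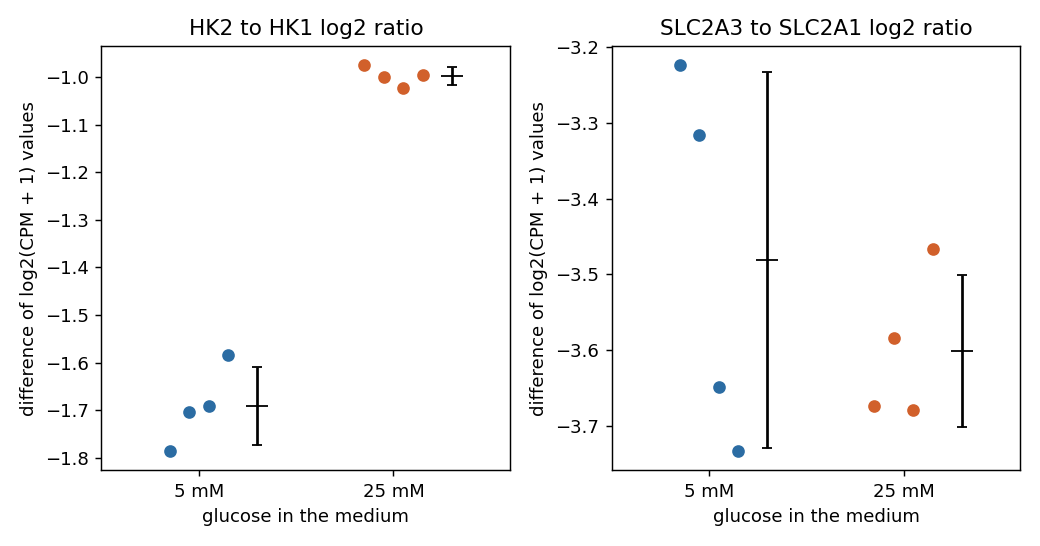
The left panel plots the HK2 to HK1 log2 ratio and the right panel the SLC2A3 to SLC2A1 log2 ratio, each as a difference of log2(CPM + 1) values by glucose in the medium, on axes that do not start at 0. Points are libraries in order of replicate number and bars are mean ± SD of 4 libraries. The left groups are apart (-1.69 ± 0.0826 and -0.997 ± 0.0195) and the right groups overlap (-3.48 ± 0.248 and -3.60 ± 0.1).

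The genes most like each main member over the 8 libraries were TMEM11, KCTD5 and ATP6V0C for SLC2A1 (Pearson r of 0.996 to 0.997), METAP1, TRIB1 and PLAA for SLC2A3 (0.980 to 0.986), CWC22, NMT1 and ZNF800 for HK1 (0.991 to 0.996) and NAT8L, CPT1A and PPTC7 for HK2 (0.999). These r describe log2(CPM + 1) values of libraries that share the 2 glucose groups. For HK2, 1810 of the 11296 genes of at least 5 CPM compared had an r over 0.95, against 1262 for SLC2A1, 498 for HK1 and 79 for SLC2A3, so likeness at this level was common for all but SLC2A3.

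Among 17 other sugar transporters, 10 were measured. Of these, 1 was higher, 4 were lower and 5 were not called, with a median log2 change of -0.21. Over all genes 22.0% were called higher and 24.8% lower, and over genes of at least 1 CPM 29.5% and 32.6%. SLC5A3, the sodium myo-inositol cotransporter that takes up an osmolyte, rose from 360 ± 6.77 to 506 ± 56.7 CPM (SD, n = 4, log2 change 0.49, adjusted p = 0.00206, limma), in the direction of SLC2A13. SLC2A5, the fructose transporter GLUT5, fell from 5.37 ± 1.23 to 1.30 ± 0.425 CPM (log2 change -1.47, adjusted p = 0.000570, limma). With a pseudocount of 0.1 its log2 change was -1.99. SLC50A1, a sugar efflux transporter, fell from 43.7 ± 1.04 to 30.0 ± 2.14 CPM (log2 change -0.53, adjusted p = 0.000150).

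The next list held 12 genes of other sugar kinases and of the glucose-6-phosphatase system, which reverses the hexokinase step and includes a carrier. Of these, 8 were measured, and 1 was higher, 5 were lower and 2 were not called, with a median log2 change of -0.49, where 29.5% of genes of at least 1 CPM were called higher and 32.6% lower. SLC37A4, which carries glucose 6-phosphate into the endoplasmic reticulum, fell from 23.3 ± 1.93 to 8.15 ± 1.30 CPM (SD, n = 4, log2 change -1.42, adjusted p = 4.56e-05, limma). G6PC3, the widely expressed glucose-6-phosphatase that the carrier supplies, fell from 50.3 ± 0.858 to 24.2 ± 3.56 CPM (log2 change -1.03, adjusted p = 9.86e-05). TKFC, the kinase of dihydroxyacetone and glyceraldehyde, fell from 19.3 ± 1.27 to 11.3 ± 1.51 CPM (log2 change -0.73, adjusted p = 0.000603). HK3 was not analysed here.

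The list drawn up for enzymes that use glucose or glucose 6-phosphate next held 13 genes, not all of which act on these sugars directly. All were in the table, and 1 was higher, 5 were lower and 7 were not called (median log2 change -0.02). Among genes of at least 1 CPM, 29.5% were called higher and 32.6% lower. H6PD, which oxidizes glucose 6-phosphate inside the endoplasmic reticulum, fell from 26.9 ± 0.657 to 10.7 ± 0.847 CPM (SD, n = 4, log2 change -1.26, adjusted p = 4.68e-06, limma). AKR1A1, an aldehyde reductase, fell from 52.9 ± 1.40 to 30.9 ± 4.11 CPM (log2 change -0.77, adjusted p = 0.000459). H6PD fell while HK2, whose product it consumes, rose. GPI and GFPT1 of this list, named here outside the rule for named genes, did not fall by call. GPI was not called (log2 change -0.07, adjusted p = 0.0649, limma), and GFPT1 was the gene called higher (log2 change 0.17, adjusted p = 0.0261, limma).

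Genes that deliver glucose transporters to the surface or remove them split both ways. Of 17, all measured, 7 were higher, 6 lower and 4 not called, with a median log2 change of -0.04. The shares among genes of at least 1 CPM were 29.5% higher and 32.6% lower. RAB10, which brings transporter vesicles to the surface, rose from 205 ± 5.93 to 291 ± 5.62 CPM (SD, n = 4, log2 change 0.50, adjusted p = 8.88e-06, limma). RAB7A, which directs endosomes to lysosomes, rose from 225 ± 6.61 to 335 ± 15.1 CPM (log2 change 0.57, adjusted p = 2.64e-05). VPS35, of the retromer that recycles GLUT1 from endosomes, rose from 74.6 ± 1.10 to 85.3 ± 1.40 CPM (log2 change 0.19, adjusted p = 0.000142), a change that was 0.09 after quantile normalization. Other retromer genes, named here outside the rule for named genes, split. VPS26A rose from 76.6 ± 4.37 to 93.2 ± 4.31 CPM (log2 change 0.28, adjusted p = 0.00284, limma). VPS29 fell from 36.3 ± 1.36 to 23.5 ± 2.09 CPM (log2 change -0.61, adjusted p = 0.000242, limma).

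Of 7 partners of hexokinase at the mitochondrion, all measured, 3 were higher, 1 was lower and 3 were not called (median log2 change 0.18). Here too, 29.5% of genes of at least 1 CPM were called higher and 32.6% lower. VDAC1, the outer membrane channel to which HK1 and HK2 bind, rose from 125 ± 5.35 to 156 ± 6.91 CPM (SD, n = 4, log2 change 0.32, adjusted p = 0.000726, limma). PPIF, cyclophilin D of the permeability transition, rose from 71.1 ± 2.04 to 139 ± 12.8 CPM (log2 change 0.95, adjusted p = 2.46e-05). TIGAR, a phosphatase that slows glycolysis and can bind HK2, rose from 14.4 ± 1.24 to 23.1 ± 1.51 CPM (log2 change 0.64, adjusted p = 0.000255).

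Of 12 transcription factors known to act on these genes, all measured, 7 were higher, 1 was lower and 4 were not called (median log2 change 0.24). For comparison, 29.5% of genes of at least 1 CPM were called higher and 32.6% lower. EPAS1, a hypoxia-inducible factor subunit, rose from 65.6 ± 1.68 to 94.6 ± 5.38 CPM (SD, n = 4, log2 change 0.52, adjusted p = 6.92e-05, limma). HIF1A, its relative known to act on SLC2A1 and HK2, rose from 174 ± 4.18 to 222 ± 16.5 CPM (log2 change 0.35, adjusted p = 0.00142). ESRRA, an orphan nuclear receptor of energy metabolism, rose from 16.5 ± 0.678 to 27.4 ± 4.03 CPM (log2 change 0.69, adjusted p = 0.000853). Both hypoxia-inducible factors are regulated mainly through protein stability, which was not measured.

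**Figure D5:**
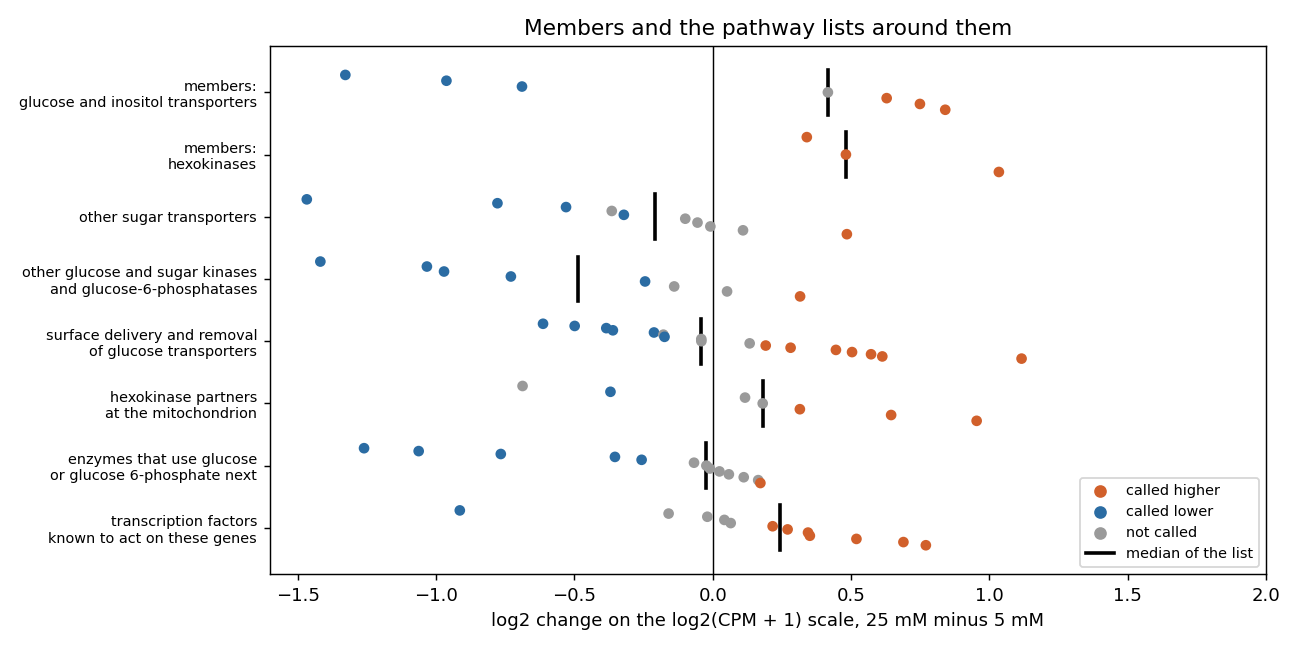
Each point is 1 measured gene placed by its log2 change on the log2(CPM + 1) scale, 25 mM minus 5 mM, in the 2 groups of members and the 6 lists around them, and black lines are list medians. The 3 hexokinases all lie to the right of 0, whereas the other sugar kinases and glucose-6-phosphatase genes have their median at -0.49. In that list ADPGK, a glucokinase named outside the rule for named genes, lies at 0.32.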

How the data were processed

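RNA was measured in 8 libraries of MDA-MB-157 cells, 4 per glucose concentration, grouped by the labels. The authors deposited 1 table of CPM per gene, scaled with TMM factors from edgeR. The submitters' processing notes name hg38, while the study's methods describe hg19 for tumors, so positions were taken from RefSeq (GRCh38.p14) and describe the annotation only. Only 73.2% to 74.6% of low values were whole multiples of 1 read (tolerance 0.02 of a read), so whole reads were not recovered. The counting tool is not given in the sources used here. Copies of 18 pseudoautosomal genes on Y, identical to those on X, were dropped.

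Values were analysed as log2(CPM + 1) with limma 3.58.1 in R 4.3.3 (lmFit and eBayes, trend = TRUE, 2-sided, without covariates), with Benjamini-Hochberg adjustment over 21059 genes and a threshold of 0.05. Ratios used exact permutation tests in Python 3.11.15. Transcript lengths, overlaps and shared sequence came from canonical transcripts of GENCODE release 44 (20730 genes matched). The steps were tested on simulated data. The genes, the lists and the tests were chosen with earlier results of these data known. In each list at most the 3 genes with the smallest adjusted p among those of at least 1 CPM are named. Of the genes so selected, 1 is not reported here. Genes named outside this rule are said to be so. Alternatives changed the pseudocount, filter, scaling, trend, replicate block and libraries.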

Additional observations from a re-analysis of the deposited data

Results flagged for a closer look

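Of 60 groups of 4 libraries examined, for the named genes and the 2 ratios, 1 had a library far from the others. RAB7A at low glucose was at 221, 222 and 223 CPM in 3 libraries and at 235 CPM in replicate 4, a gap of 0.85 of the range of the group. Chance sets about 1 in 20 such groups apart, which is 3 groups here. No library of a transporter or hexokinase member met this criterion.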

How the results depend on the processing

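Between 8120 and 10720 genes were called under the alternatives (9849 as reported), and 6 to 7 members were higher and 2 to 3 lower. SLC2A8 was the member that joined the higher group under 4 alternatives, and it and SLC2A12 were not tested with the minimum of 5 CPM, where 2 members were lower. Of 178 values of members under the alternatives, 174 kept their direction and their side of the threshold. All 323 values of the other named genes did so. The share of calls that were higher was between 47.0% and 52.3%, and the median change of genes of at least 1 CPM was between -0.05 and -0.003 over all settings. Leaving out single libraries gave 8899 to 10156 genes, 6 members higher and 3 lower in each case, a difference in the HK2 to HK1 ratio of 0.66 to 0.73 and in the SLC2A3 to SLC2A1 ratio of -0.20 to -0.03. For same-numbered libraries, the deviations of genes from their group means correlated at -0.0403 to 0.0692 across 11297 genes. The numbers were therefore not taken to pair the samples. With a replicate block 8921 genes were called, with 6 members higher and 3 lower. For the HK2 to HK1 ratio, the replicate block gave 0.69 with an exact permutation p of 0.125, the smallest that 4 pairs allow. Among the members, depth limits SLC2A8, SLC2A12 and HKDC1, whose lowest libraries held an estimated 17, 18 and 42 reads. It also limits SLC2A5, SLC2A4 and MLXIPL of the lists, which stood at 0.918, 0.877 and 0.978 CPM in their lowest libraries. Removing the trend along length or GC also removes any difference between the groups that runs along it.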

Other observations

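The following genes of the lists were chosen after their values were seen. ARRDC4 and TXNIP, arrestins known to bring GLUT1 in from the surface, did not move alike. ARRDC4 held 1.75 to 2.90 CPM at low and 5.24 to 6.43 CPM at high glucose (log2 change 1.12, adjusted p = 0.000262, limma). TXNIP held 12.5 to 15.2 and 9.24 to 13.3 CPM, and its groups overlapped (log2 change -0.18, adjusted p = 0.275, limma). MLXIPL, the carbohydrate-response factor ChREBP, fell from 5.03 ± 0.382 to 2.35 ± 1.11 CPM (SD, n = 4, log2 change -0.91, adjusted p = 0.0202, limma). Its more abundant relative MLXIP rose from 46.4 ± 2.83 to 59.1 ± 3.23 CPM (log2 change 0.34, adjusted p = 0.00174, limma). MLX, of the same list, was at 51.4 ± 2.32 and 50.8 ± 4.23 CPM (adjusted p = 0.859, limma).

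SLC2A4, the insulin-responsive transporter GLUT4, fell from 2.99 ± 0.454 to 1.35 ± 0.488 CPM (log2 change -0.78, adjusted p = 0.00620, limma). ADPGK, a glucokinase that uses ADP, was the gene of its list that rose, from 27.5 ± 1.31 to 34.5 ± 1.62 CPM (log2 change 0.32, adjusted p = 0.00112, limma). VDAC3, a relative of VDAC1, fell from 116 ± 3.21 to 90.1 ± 6.61 CPM (log2 change -0.37, adjusted p = 0.000965, limma), and VDAC2 was at 159 ± 4.35 and 173 ± 14.8 CPM with an adjusted p of 0.157 (limma).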
